A study of Homo sapiens with 12 samples.

Results

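MDA-MB-453 is an established human breast cancer cell line that the study used as one of its HER2 cell lines. RNA-seq libraries of untreated and TWEAK-treated MDA-MB-453 cells, 3 of each, were compared over all genes, and these are 6 of the 12 libraries of the series, the other 6 being the same design in the HER2 line SKBR3. Cells were seeded in DMEM with 10% FBS, starved in Opti-MEM for 8 h after 24 h, and then received TWEAK at 10 ng/ml over 48 h with one renewal at 24 h. The labels attach that same text to the untreated cultures and do not describe their handling separately, so all 6 cultures are taken to share the starvation. One dose, one time point and a single line were sampled, and the study describes its replicates as biological and its cell line experiments as repeated on separate days.

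The libraries held between 24773003 and 35208304 counted reads (TWEAK replicate 1 and TWEAK replicate 3), and 3 counts corresponded to 0.0854 to 0.121 counts scaled to library size (CPM). The libraries carried luminal epithelial and HER2 markers, which do not tell MDA-MB-453 from SKBR3. EPCAM, an epithelial adhesion molecule, lay between 377 and 417 CPM in the 6 libraries, the luminal keratin KRT8 between 616 and 692 CPM, the luminal transcription factor GATA3 between 1117 and 1158 CPM and ERBB2, which encodes HER2, between 883 and 945 CPM. By contrast, the oestrogen receptor gene ESR1 had at most 6 counts in any library, the basal keratin KRT5 at most 2 and KRT14 at most 1. TWEAK replicate 2 stood apart from its group: a chi-square comparison of counts gave 10.1 per degree of freedom against TWEAK replicate 1 and 5.40 against TWEAK replicate 3, whereas the other within-group pairs gave 2.09 to 2.89. Deviations from the mean of the 6 libraries correlated with transcript length, across genes of at least 1 CPM, at r = -0.30, 0.21 and -0.15 in TWEAK replicates 1, 2 and 3 and at -0.0032, 0.18 and 0.10 in untreated replicates 1, 2 and 3, so that TWEAK replicates 1 and 3 lay farthest from the untreated libraries in this measure. These are descriptions over genes that share a library. Counts of calls in gene lists are also given without TWEAK replicate 2 where they differ.

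TWEAK (TNFSF12) is a cytokine of the tumour necrosis factor superfamily that binds the receptor Fn14 (TNFRSF12A). Fn14 has no death domain and recruits TRAF adaptors together with the cellular inhibitors of apoptosis, which otherwise keep the kinase NIK (MAP3K14) degraded. Stabilised NIK activates IKKα (CHUK), which drives processing of p100 (NFKB2) to p52 and entry of p52 with RelB into the nucleus. This is the non-canonical NF-κB pathway, and it runs beside the canonical pathway of RelA and p50 with its IκB inhibitors. Among known NF-κB targets are the inhibitors themselves, adhesion molecules and parts of the MHC class I machinery, the last of which are also targets of interferon through STAT and IRF factors.

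With all 6 libraries weighted alike and no block, the called genes of MDA-MB-453 were few and mostly higher, but neither held under every alternative. Of 14929 genes tested, 192 were higher (1.29% of all tested genes) and 31 lower (0.208%) at an adjusted p of at most 0.1, by the quasi-likelihood test of edgeR after Benjamini-Hochberg adjustment, as for every adjusted p given here. Thus 86.1% of the changed genes were higher, and with an offset for GC content and transcript length this share was 69.4% (234 higher and 103 lower). It was 54.8% with a replicate block (490 and 404), 51.9% by limma voom with sample quality weights (1037 and 963) and 47.7% without TWEAK replicate 2. The median log2 fold change was 0.46 among the higher genes and -0.25 among the lower ones, and 0.0016 over all tested genes. Only 42 of the higher genes rose by at least 1 on the log2 scale, 102 rose by less than 0.5, and 5 of the lower genes fell by 0.5 or more. Protein-coding genes made up 212 of the 223, and 10 of the 11 long non-coding RNAs were higher. Without TWEAK replicate 2 the counts were 1003 higher (6.59%) and 1098 lower (7.22%), which included all 192 and all 31. Without untreated replicate 2 they were 121 and 10, without untreated replicate 3 they were 120 and 11, and without TWEAK replicate 3 they were 132 and 11. The genes called without TWEAK replicate 2 differed in length from those called with all 6 libraries. The median transcript span in exons was 4591 bases for the 192 and 5743 bases for the 31. It was 3381 bases for the 1003 and 9574 bases for the 1098, against 4772 bases over all tested genes. With the offset for GC content and length as well, an alternative chosen after seeing the data, the counts without TWEAK replicate 2 were 862 and 871. Genes are named below from the 6-library comparison.

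**Figure D1:**
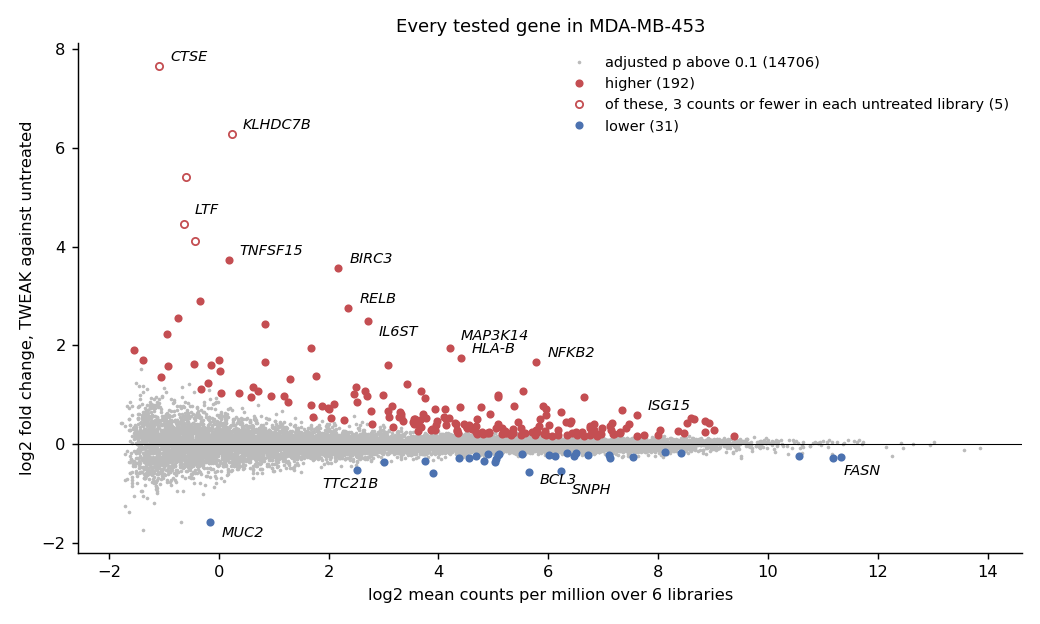
Log2 fold change with TWEAK against mean expression (log2 CPM over 6 libraries) for each of the 14929 tested genes of MDA-MB-453, with the 192 higher genes in red, the 31 lower genes in blue and open circles for 5 higher genes with 3 counts or fewer in each untreated library. The larger changes are upward and sit at low to middle expression, and 5 lower genes lie at or below -0.5.

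The receptor and ligand themselves gave little signal. TNFRSF12A, which encodes Fn14, measured 54.9, 53.6 and 55.2 CPM in the untreated libraries and 64.7, 59.4 and 60.0 CPM in the TWEAK-treated libraries. All 3 treated values were above all untreated values, by a log2 fold change of 0.17 ± 0.045 (standard error derived from the test statistic, 3 libraries against 3), with an adjusted p of 0.129 that became 0.00849 without TWEAK replicate 2. Such a separation of all 3 treated libraries above all untreated ones occurred in 8.32% of tested genes, and the opposite one in 6.70%. Endogenous TNFSF12 transcripts were near the limit of detection, with 0, 0 and 0 counts in untreated and 0, 1 and 0 counts in TWEAK-treated libraries.

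Genes of the non-canonical NF-κB pathway rose. Of the 4 genes listed for that pathway, 3 rose and the median log2 fold change was 1.81, against 0.0016 over all tested genes. NFKB2 (ENSG00000077150, chr10:102394110-102402524 on GRCh38), the p100 precursor of p52, measured 27.3, 25.5 and 25.9 CPM untreated and 88.1, 83.9 and 79.6 CPM with TWEAK. It rose by 1.67 ± 0.051 on the log2 scale with the smallest adjusted p of all genes (3.01e-10). RELB (ENSG00000104856, chr19:45001461-45038192), the partner of p52, went from 1.36, 1.26 and 1.34 CPM to 8.37, 10.1 and 8.36 CPM, a log2 fold change of 2.75 ± 0.13, adjusted p = 2.95e-08. Both genes showed no overlap between groups, and RELB was the gene of this pathway with the larger change. The kinase gene MAP3K14 (ENSG00000006062, chr17:45263119-45317029) encodes NIK, which integrates the signal upstream of p100, and measured 8.18, 7.24 and 7.33 CPM untreated and 26.6, 32 and 29.4 CPM treated (1.95 ± 0.081, adjusted p = 7.71e-09). Opposite-strand exons cover 15.1% of its exonic bases, and the strand setting of the counting is not given in the sources used here. CHUK, the IKKα kinase gene, was not called, with 56.3, 56.8 and 56.6 CPM against 53.8, 56.9 and 55.9 CPM and overlapping groups (-0.027 ± 0.041, adjusted p = 0.847).

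Among the TRAF and cIAP genes that sit at the receptor, 2 of 13 rose and none fell, with a median log2 fold change of 0.084. BIRC3 (ENSG00000023445, chr11:102317484-102339403), a cIAP ubiquitin ligase and a known NF-κB target, had 0.779, 0.61 and 0.691 CPM untreated and 8.17, 9.4 and 7.43 CPM with TWEAK. This was a 11.9-fold difference (3.57 ± 0.16, adjusted p = 1.57e-08), with no overlap between the groups. TRAF3, the adaptor that presents NIK for degradation, measured 35.7, 38.4 and 36.4 CPM and 49.8, 52.1 and 50.2 CPM (0.46 ± 0.046, adjusted p = 6.64e-05). The paralogue BIRC2 measured 57.9, 57.1 and 60.8 CPM against 59, 62 and 60.4 CPM (0.046 ± 0.043, adjusted p = 0.73), and TRAF2 75.8, 73.9 and 72.5 CPM against 80.6, 77.9 and 80.0 CPM (0.10 ± 0.039, adjusted p = 0.364). TRAF1, a signalling adaptor that is an NF-κB target in many cells, stood at 1.05, 1.3 and 1.11 CPM untreated and 1.09, 1.72 and 1.76 CPM treated, with overlapping groups and an adjusted p of 0.521.

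Canonical NF-κB subunits and kinases gave no call among 10 genes tested with edgeR, 2 had an unadjusted p under 0.05, DESeq2 gave none, and their median log2 fold change was -0.020. limma voom with sample weights called 2 higher, edgeR with the offset for GC content and length called 2 higher, and 1 was higher without TWEAK replicate 2. RELA measured 86.5, 87.3 and 86.2 CPM untreated and 82.5, 86.3 and 86 CPM with TWEAK (-0.028 ± 0.038, adjusted p = 0.824), so its groups overlapped. NFKB1, which encodes p105 and p50, lay slightly above in each treated library at 72.6, 76 and 72.2 CPM against 67.5, 68.3 and 67.3 CPM (0.12 ± 0.040, adjusted p = 0.276). MAP3K8, a kinase held by p105, had a log2 fold change of 0.73 ± 0.19, adjusted p = 0.113.

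Inhibitors of NF-κB included higher genes and a lower one: 6 of 13 tested rose and 1 fell, with a median log2 fold change of 0.25. TNFAIP3 (ENSG00000118503, chr6:137867214-137883314), the ubiquitin-editing enzyme A20, had 0.584, 0.686 and 0.384 CPM untreated and 2.7, 3.6 and 2.79 CPM with TWEAK (2.44 ± 0.23, adjusted p = 2.58e-05), its lowest treated value being well above its highest untreated one. NFKBIA, the inhibitor IκBα, was far more abundant and measured 67.3, 69.8 and 67.2 CPM against 137, 128 and 130.5 CPM (0.95 ± 0.041, adjusted p = 7.71e-09). NFKBIE, the inhibitor IκBε, went from 14.5, 14.1 and 15 CPM to 21, 20.2 and 21.3 CPM (0.52 ± 0.058, adjusted p = 0.000146). The deubiquitinase gene CYLD rose by 0.32 (adjusted p = 0.00544), the A20-binding protein gene TNIP1 by 0.25 (adjusted p = 0.00399, and 0.106 with all 12 libraries in one fit) and the IκBβ gene NFKBIB by 0.27 (adjusted p = 0.0365). The call of NFKBIB was lost without any one untreated library or TWEAK replicate 3 (adjusted p = 0.101 to 0.305) and with all 12 libraries in one fit (0.390), where 4 of the list were higher.

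BCL3 was the one gene of these lists that fell. It encodes an atypical IκB protein that binds p50 and p52 homodimers in the nucleus, and it measured 56.5, 61 and 60.4 CPM untreated and 39.2, 42 and 40.1 CPM with TWEAK. The log2 fold change was -0.55 ± 0.047, adjusted p = 1.11e-05, and the highest treated library lay below the lowest untreated one. The other nuclear IκB genes in the list, NFKBID and NFKBIZ, had log2 fold changes of 0.25 (adjusted p = 0.318) and -0.012 (adjusted p = 0.961).

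**Figure D2:**
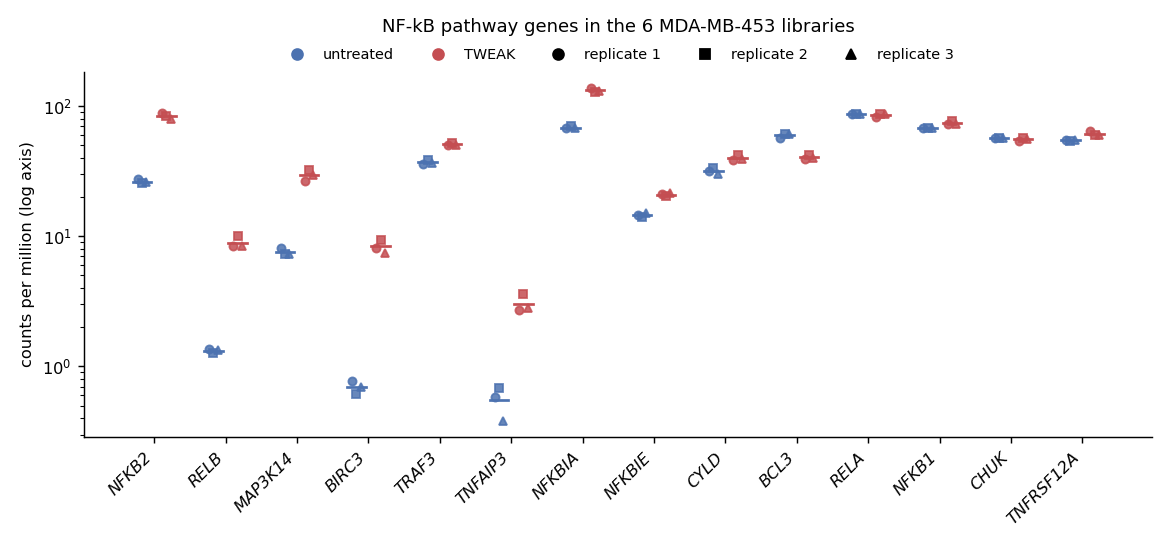
Expression of 14 genes of the NF-κB pathway in the 6 MDA-MB-453 libraries, in CPM on a log axis, with untreated libraries in blue, TWEAK-treated libraries in red, 1 symbol per replicate and a bar at each group's mean. NFKB2, RELB, MAP3K14, BIRC3, TNFAIP3 and NFKBIA separate by group, BCL3 is lower with TWEAK, and RELA, CHUK and NFKB1 lie close together.

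The promoters of the rising NF-κB genes were read for the κB consensus because these genes moved together. Windows of 250 bases before the annotated start were taken from RefSeq (GRCh38.p14), and both strands were searched for the 10-base κB consensus. A match was present in 9.96% of 35116 windows, and in 15.3% of the 10439 tested genes that had a window. Of the 11 genes that rose in the lists of non-canonical NF-κB, TRAF and cIAP genes and NF-κB inhibitors, 9 had a window and 8 of these (88.9%) held a match. A match describes the letters and does not show binding. The lists were written around this pathway, and the share among their uncalled members was not taken. The share therefore does not tell the members that rose from those that did not. The windows of BIRC3 (chr11:102317234-102317483, plus strand), TNFAIP3 (chr6:137867009-137867258, plus strand), NFKBIA (chr14:35404750-35404999, minus strand) and IL6ST (chr5:55994964-55995213, minus strand) are given 5′ to 3′ with the matches in capitals, the first 3 as rising genes of this group with a match and IL6ST for the cytokine receptor chain described further on.
BIRC3: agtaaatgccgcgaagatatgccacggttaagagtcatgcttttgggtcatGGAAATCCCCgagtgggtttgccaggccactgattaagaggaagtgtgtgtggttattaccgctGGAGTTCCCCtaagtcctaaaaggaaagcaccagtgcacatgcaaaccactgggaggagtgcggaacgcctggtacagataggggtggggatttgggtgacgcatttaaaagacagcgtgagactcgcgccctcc
TNFAIP3: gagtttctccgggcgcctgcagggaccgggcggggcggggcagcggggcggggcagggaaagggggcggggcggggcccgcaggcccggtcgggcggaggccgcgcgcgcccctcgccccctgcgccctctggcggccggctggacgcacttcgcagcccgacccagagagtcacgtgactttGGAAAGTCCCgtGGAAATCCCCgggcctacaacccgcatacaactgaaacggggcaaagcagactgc
NFKBIA: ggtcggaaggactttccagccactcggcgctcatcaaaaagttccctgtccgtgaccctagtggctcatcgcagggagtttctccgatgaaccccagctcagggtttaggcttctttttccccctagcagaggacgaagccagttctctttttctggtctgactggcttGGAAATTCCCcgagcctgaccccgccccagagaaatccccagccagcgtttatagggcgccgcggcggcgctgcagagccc
IL6ST: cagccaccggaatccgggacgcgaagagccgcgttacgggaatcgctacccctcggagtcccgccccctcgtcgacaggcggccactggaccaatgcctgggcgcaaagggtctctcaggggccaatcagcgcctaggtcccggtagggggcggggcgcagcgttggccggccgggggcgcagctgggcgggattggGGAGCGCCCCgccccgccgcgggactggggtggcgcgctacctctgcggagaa
The 2 matches of BIRC3 lie 199 to 190 and 135 to 126 bases before its start. Those of TNFAIP3 lie closer and almost adjoin each other, at 67 to 58 and 55 to 46 bases. NFKBIA has its match at 81 to 72 bases and IL6ST at 53 to 44 bases. Starts are those of RefSeq, and the match of IL6ST lies inside the longer GENCODE span given for that gene with its values.

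Ligands and receptors of the TNF superfamily were mostly low or not called. TNFSF15 (TL1A; ENSG00000181634, chr9:114784652-114806039), a ligand of the death receptor DR3, measured 0.156, 0.114 and 0.192 CPM in untreated cells and 1.85, 2.47 and 2.02 CPM in TWEAK-treated cells. It rose 13.3-fold (3.74 ± 0.29, adjusted p = 6.01e-06), from 4, 3 and 5 counts to 46, 63 and 71 counts. TNFSF10, which encodes the death ligand TRAIL, had 26, 23.4 and 26.8 CPM against 31.1, 29.2 and 30.7 CPM (0.26 ± 0.059, adjusted p = 0.0544). Of 17 listed ligands 5 passed the filter on low counts and these 2 were called, but TNFSF15 passed it through its treated libraries alone, so the share is not read further. LTB, which encodes lymphotoxin β, was too low to be tested at 0, 0 and 0 counts untreated and 6, 6 and 10 counts with TWEAK, at least 2.2-fold higher when 3 counts per untreated library are taken as the floor. The TNF gene itself had 0, 0 and 0 counts untreated and 0, 1 and 3 counts treated.

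None of the 11 tested TNF receptor genes was called by edgeR or DESeq2, although 3 had an unadjusted p under 0.05 and limma voom with sample weights called 3, as did edgeR without TWEAK replicate 2. FAS, the death receptor gene, measured 0.311, 0.191 and 0.192 CPM and 0.684, 0.47 and 0.455 CPM (1.18 ± 0.37, adjusted p = 0.239). TNFRSF10B, a TRAIL receptor gene, measured 35.2, 35.6 and 32.9 CPM and 39.7, 39.8 and 37.4 CPM (0.17 ± 0.050, adjusted p = 0.195). In both, every treated library lay above every untreated one.

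Interferon-stimulated genes contributed more rising genes than any other list. Of 58 tested, 39 rose, none fell and the median log2 fold change was 0.44, and 49 were called without TWEAK replicate 2. Dropping untreated replicate 2 left 26 calls, dropping untreated replicate 3 left 27, dropping TWEAK replicate 3 left 30 and fitting all 12 libraries together gave 28, with none lower in any of these. IFI44L, an interferon-induced gene of restricted expression, had the largest change of the group, from 2.49, 1.56 and 1.65 CPM to 6.28, 4.0 and 4.61 CPM (1.37 ± 0.20, adjusted p = 0.00174). MX1, a dynamin-like GTPase against RNA viruses, measured 24.3, 20.9 and 22.2 CPM untreated and 52.5, 36.1 and 46.8 CPM with TWEAK (1.01 ± 0.11, adjusted p = 8.97e-05). OAS2, one of the oligoadenylate synthetases that activate RNase L, measured 24.6, 20.5 and 23.7 CPM and 51.4, 37.1 and 45.1 CPM (0.96 ± 0.10, adjusted p = 7.81e-05). In all 3 genes TWEAK replicate 1 was the highest library and TWEAK replicate 2 the lowest of the treated ones, although it still lay above each untreated library.

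The same order held in the abundant members. IFIT1, which binds viral RNA caps, measured 129.9, 114 and 126 CPM and 234, 162 and 203 CPM (0.69 ± 0.10, adjusted p = 0.00112). The ubiquitin-like modifier gene ISG15 measured 167, 146 and 154 CPM and 282, 183 and 242 CPM (0.60 ± 0.11, adjusted p = 0.0104), and without TWEAK replicate 2 its change was 0.75 (adjusted p = 2.06e-11). The call of ISG15 was lost without untreated replicate 2 (adjusted p = 0.133) or untreated replicate 3 (0.108). UBE2L6, the E2 enzyme for ISG15, went from 51.5, 43.3 and 46.8 CPM to 87.9, 65.9 and 79.5 CPM (0.72 ± 0.086, adjusted p = 0.000258). USP18, which removes ISG15 and restrains the interferon receptor, rose by less, 0.28 ± 0.047 (adjusted p = 0.00544).

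Other rising members spanned log2 fold changes from 0.21 in APOL2 to 1.12 in GBP3, a guanylate-binding protein gene at about 1 CPM (adjusted p = 0.0641). OAS1 changed by 0.66, OAS3 by 0.43 and OASL by 0.55, so that all 4 listed genes of the oligoadenylate synthetase family with a call rose. The poly(ADP-ribose) polymerases PARP9, PARP10, PARP12 and PARP14 rose by 0.32, 0.40, 0.42 and 0.44, and the ubiquitin ligase gene DTX3L, the partner of PARP9, by 0.38. The RNA sensor gene IFIH1 (MDA5) measured 72.9, 69.4 and 70.6 CPM and 105, 94.6 and 95.8 CPM (0.47 ± 0.047, adjusted p = 5.51e-05). DHX58, which encodes the related LGP2, was at the limit of the call (0.46 ± 0.12, adjusted p = 0.0993). RIGI, the third sensor, was low and not called, at 3.27, 2.21 and 2.92 CPM untreated and 3.66, 3.72 and 3.41 CPM treated (0.36 ± 0.15, adjusted p = 0.40). Of the other tested members without a call, RSAD2 (viperin) had 5.29, 3.54 and 4.61 CPM and 7.49, 5.21 and 7.11 CPM, with overlapping groups and an adjusted p of 0.138.

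Of the IRF and STAT factors and interferon receptors, 4 of 17 tested genes rose and none fell, with a median of 0.088. IRF1 (ENSG00000125347, chr5:132440440-132508719), a transcription factor shared by interferon-γ and NF-κB signalling, measured 6.5, 5.72 and 7.1 CPM untreated and 16.9, 13.9 and 14.2 CPM with TWEAK (1.22 ± 0.10, adjusted p = 8.69e-06). Opposite-strand exons cover 22.9% of its exonic bases. IRF9, the DNA-binding subunit of the interferon-activated factor ISGF3, rose by 0.42 (adjusted p = 0.0020) and IRF7, a factor that amplifies interferon production, by 0.37 (adjusted p = 0.000448). In IRF9, unlike IRF1 and IRF7, TWEAK replicate 2 was the highest treated library, at 21.7, 24.6 and 22.5 CPM against 17.6, 17 and 16.9 CPM untreated. STAT2 gave 0.11 (adjusted p = 0.374), IRF3 0.048 (adjusted p = 0.773) and the receptor gene IFNAR1 -0.050 (adjusted p = 0.694). Transcripts of the interferons themselves were barely counted. IFNB1 had 1, 2 and 3 counts untreated and 4, 1 and 2 counts treated, and IFNL1 had 3, 7 and 6 and 11, 7 and 17 counts, both too low to be tested.

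MHC class I genes rose together with the genes that supply them with peptide. Of 6 tested class I molecules 5 rose (6 without TWEAK replicate 2 and 4 without untreated replicate 2), none fell and the median log2 fold change was 0.65. HLA-B (ENSG00000234745, chr6:31353872-31367067) measured 10.9, 8.58 and 9.79 CPM untreated and 39.6, 28.1 and 30.7 CPM with TWEAK (1.74 ± 0.12, adjusted p = 1.25e-06), with a wide gap between the groups. HLA-C measured 243, 224 and 238 CPM and 306, 264 and 290.5 CPM (0.29 ± 0.051, adjusted p = 0.00854). B2M, the invariant light chain shared by all class I molecules, had 321, 294 and 334 CPM untreated and 494, 416 and 459 CPM with TWEAK (0.53 ± 0.059, adjusted p = 0.00014). HLA-F rose by 0.98 (adjusted p = 0.00668) with 28% of its exonic bases covered by opposite-strand exons, and HLA-E gave 0.21 (adjusted p = 0.21, and 0.00707 without TWEAK replicate 2). HLA-B, HLA-C and HLA-F are near-identical in parts, so reads can be split or lost between them and the change of any one is uncertain to that extent. Per kilobase of exon, untreated cells held 101 RPKM of B2M, 93.7 RPKM of HLA-C and 2.11 RPKM of HLA-B, and TWEAK-treated cells 146, 114 and 7.09 RPKM.

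In peptide supply, 9 of 15 tested genes rose, none fell and the median was 0.33. With 1 library left out at a time 7 to 11 were called. PSMB9, an inducible subunit of the immunoproteasome, had 1.44, 1.52 and 1.27 CPM untreated and 3.9, 3.29 and 3.39 CPM treated (1.31 ± 0.15, adjusted p = 0.000209). The other inducible subunits PSMB8 and PSMB10 rose by 0.49 and 0.68 (adjusted p = 0.0209 and 0.0020), and the proteasome activator genes PSME1 and PSME2 by 0.26 and 0.33 (adjusted p = 0.0557 and 0.00192). TAP1, a subunit of the peptide transporter, measured 24.1, 23.5 and 24.8 CPM and 37.8, 37 and 35.6 CPM (0.60 ± 0.050, adjusted p = 9.43e-06), so its groups lay far apart and its 3 treated libraries close together. TAP2 was low, at 0.701, 0.458 and 0.614 CPM and 1.01, 0.823 and 0.996 CPM (0.68 ± 0.25, adjusted p = 0.349). The trimming peptidases ERAP1 and ERAP2 rose by 0.33 and 0.71 (adjusted p = 0.00753 and 2.55e-05). NLRC5 (ENSG00000140853), the transactivator of class I promoters, measured 8.22, 7.01 and 7.72 CPM untreated and 12, 12 and 12 CPM with TWEAK (0.65 ± 0.078, adjusted p = 0.000259). TAPBP, which encodes tapasin, gave 0.23 (adjusted p = 0.247). MHC class II genes gave no call by edgeR, DESeq2 or limma voom among 2 tested, none had an unadjusted p under 0.05, and the summed level of the list was 2.38 to 3.51 CPM untreated and 2.76 to 3.54 CPM treated.

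Across the treated libraries the rises of these genes followed a common order. Relative to the untreated mean on a log2(CPM + 0.1) scale, the median rise of the 39 interferon-stimulated genes was 0.66, 0.35 and 0.49 in TWEAK replicates 1, 2 and 3, and TWEAK replicate 2 was the lowest treated library for 33 of the 39. The 5 class I molecules gave medians of 0.93, 0.61 and 0.73, and TWEAK replicate 2 was lowest for all 5. It was lowest for 5 of the 9 genes of peptide supply and for 107 of all 192 higher genes, of which 115 were highest in TWEAK replicate 1. For the 11 rising genes of the NF-κB lists the medians were 1.01, 0.91 and 0.94, and TWEAK replicate 2 was lowest for 3 and highest for 7. With the dependence on GC content and length taken out of each library, the interferon-stimulated genes were lowest in TWEAK replicate 2 for 36 of 39, with medians of 0.61, 0.34 and 0.46. The labels give no property of the libraries that follows this order, and its source was not tested.

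**Figure D3:**
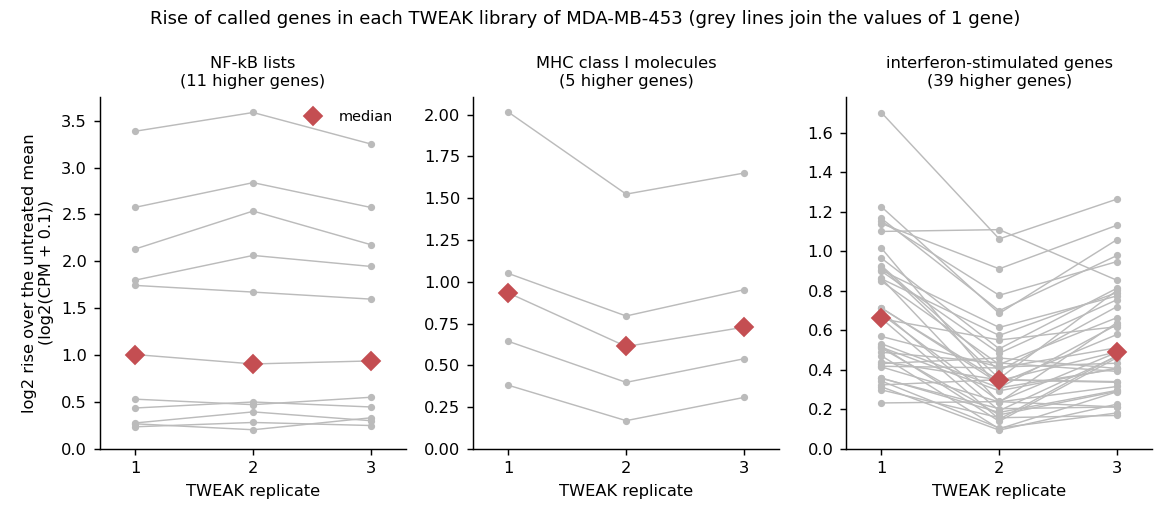
Rise of each called gene above the untreated mean in the 3 TWEAK libraries, on the log2(CPM + 0.1) scale, for 11 genes of the NF-κB lists, 5 MHC class I molecules and 39 interferon-stimulated genes, with grey lines joining the values of a gene and red diamonds at the medians. TWEAK replicate 2 holds the lowest median in each panel, by a wider gap in the class I and interferon-stimulated panels.

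The promoters of these genes were read in the same way for the core of the interferon-stimulated response element, searched on both strands as a pair of GAAA words with any 2 bases between them. It occurred in 3.02% of all windows and in 3.1% of tested genes with a window. Among the rising interferon-stimulated genes 31 had a window, of which 19 (61.3%) held the core and 5 (16.1%) a κB match. Of the 192 higher genes, 151 had a window, and 34 (22.5%) held the core and 43 (28.5%) a κB match. Of the 31 lower genes 25 had a window, and 1 (4.0%) held the core and 7 (28.0%) a κB match. The 9 NF-κB genes with a window held no such core. Uncalled members of the lists were not counted here either, so the list shares do not tell rising members from the others. IFIT1 (chr10:89392373-89392622, plus strand) is printed as an interferon-stimulated gene with 2 cores and TAP1 (chr6:32853705-32853954, minus strand, one of its 2 windows) as a gene with both motifs.
IFIT1: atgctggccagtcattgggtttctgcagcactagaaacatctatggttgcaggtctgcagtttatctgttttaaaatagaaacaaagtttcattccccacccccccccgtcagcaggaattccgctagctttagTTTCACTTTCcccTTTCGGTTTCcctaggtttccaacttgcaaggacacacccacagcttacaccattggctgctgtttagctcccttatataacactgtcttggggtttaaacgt
TAP1: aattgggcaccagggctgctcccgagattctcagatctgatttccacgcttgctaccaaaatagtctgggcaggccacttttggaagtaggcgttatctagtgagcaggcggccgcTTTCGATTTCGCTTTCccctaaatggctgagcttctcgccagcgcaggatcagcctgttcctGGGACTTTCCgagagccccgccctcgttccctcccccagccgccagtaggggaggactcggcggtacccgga
The cores of IFIT1 lie 116 to 107 and 103 to 94 bases before the start. Those of TAP1 overlap each other at 134 to 125 and 128 to 119 bases, and its κB match lies at 72 to 63 bases, inside the longer GENCODE span of TAP1. Over all windows 71 held both motifs, and in 1 window a κB match and a core shared a base.

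In each of 2 cytokine receptor lists a single gene was called, but without TWEAK replicate 2 the IL-6 family list had 2 higher and the interleukin list 1 higher and 2 lower. IL6ST (ENSG00000134352, chr5:55935095-55995022), which encodes gp130, the signalling chain shared by IL-6, LIF and oncostatin M, measured 2.02, 2.1 and 1.77 CPM untreated and 11.1, 11.6 and 10.7 CPM with TWEAK. It rose 5.65-fold (2.5 ± 0.11, adjusted p = 7.71e-09), with very little spread inside either group, and was the 1 gene called of 13 tested in the IL-6 family list (median 0.079). The partner receptor genes LIFR, OSMR and IL6R gave -0.087, 0.11 and 0.041 (adjusted p = 0.787, 0.663 and 0.829), and the downstream factor STAT3 0.011 (adjusted p = 0.937). SOCS3, a STAT3 target and inhibitor of gp130, measured 1.48, 1.98 and 1.65 CPM and 1.77, 1.88 and 1.88 CPM (0.11 ± 0.17, adjusted p = 0.839). IL4R, the receptor chain for IL-4 and IL-13, was the 1 gene called of 13 tested interleukins and receptors, at 2.41, 2.82 and 2.69 CPM and 3.66, 4.31 and 3.75 CPM (0.56 ± 0.13, adjusted p = 0.0586), a call that DESeq2 did not make. IL6 itself had 1, 0 and 0 counts untreated and 1, 0 and 1 counts treated.

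Most chemokine genes were barely counted: 4 of 25 listed genes were tested, none was called by edgeR or DESeq2, 2 had an unadjusted p under 0.05, limma voom called 2, edgeR with the offset for GC content and length called 1 higher, and 2 were higher without TWEAK replicate 2. The well expressed members were CXCL16, a membrane-bound chemokine, at 26.2, 26.8 and 27.1 CPM and 28.7, 29.2 and 28.2 CPM (0.10 ± 0.049, adjusted p = 0.486), and CCL28, a mucosal chemokine, at 16, 15.4 and 14.9 CPM and 16.2, 13.6 and 14.2 CPM (-0.077 ± 0.073, adjusted p = 0.735). CCL5, a chemoattractant of T cells, measured 0.857, 0.496 and 0.614 CPM and 1.37, 1.33 and 1.14 CPM (0.95 ± 0.24, adjusted p = 0.109), just above the threshold of 0.1. CXCL8, the neutrophil attractant IL-8, had 3, 10 and 2 counts untreated and 15, 12 and 21 counts treated (1.52 ± 0.45, adjusted p = 0.196). CXCL10 was too low to be tested, with 2, 0 and 5 and 17, 11 and 11 counts.

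Of 30 listed genes of epithelial defence, 8 passed the filter on low counts and 3 were higher, of which LTF passed it through its treated libraries alone, and 1 more was lower without TWEAK replicate 2. S100A8 and S100A9 encode the subunits of calprotectin, which sequesters metals from microbes. S100A8 measured 1.52, 1.3 and 1.11 CPM untreated and 5.92, 4.58 and 4.75 CPM with TWEAK (1.95 ± 0.16, adjusted p = 9.76e-06), and S100A9 5.84, 4.61 and 5.57 CPM and 11.4, 9.13 and 11.2 CPM (0.99 ± 0.11, adjusted p = 0.000142). LTF, the iron-binding lactotransferrin gene, went from 3, 1 and 0 counts to 30, 38 and 36 counts, 4 against 104 in sum, a ratio of 23.7 with an exact 95% interval of 8.98 to 88.6 that covers counting error only (adjusted p = 0.000121). LCN2 and SAA1 had no count in any of the 6 libraries.

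ITGAM, the integrin chain CD11b of myeloid cells, rose as well, from 3, 0 and 3 counts to 35, 41 and 43 counts, a ratio of 18.1 with an interval of 8.06 to 50.2 (adjusted p = 8.77e-05). Of 10 leukocyte markers it alone passed the filter on low counts, through its treated libraries. The other 9 stayed at or near 0: the pan-leukocyte gene PTPRC had 4, 1 and 3 counts untreated and 2, 2 and 1 counts treated, the monocyte gene CD14 3, 0 and 2 and 2, 3 and 1, the T cell gene CD3E 0, 1 and 1 and 0, 0 and 1, and MS4A1 had none. With ITGAM included, the list summed to 0.267 to 0.584 CPM untreated and 1.42 to 1.92 CPM treated. Of 11 fibroblast and endothelial markers 5 had no count in any library, 2 were tested and neither was called by edgeR or DESeq2 (1 had an unadjusted p under 0.05, and limma voom called 1 lower, as did edgeR without TWEAK replicate 2). COL1A1, which made up most of that list, measured 128, 128 and 122 CPM and 111, 118 and 118 CPM (-0.12 ± 0.040, adjusted p = 0.272). In bulk RNA, fewer cells of a type and less RNA per cell cannot be told apart.

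Among surface ligands for lymphocytes 1 of 15 tested was called, and 2 without TWEAK replicate 2. ICAM1, the ligand of the integrin LFA-1, measured 7.51, 6.52 and 6.95 CPM and 10.0, 10.5 and 10.2 CPM (0.55 ± 0.082, adjusted p = 0.00201), with 25.4% of its exonic bases covered by opposite-strand exons. CD274, which encodes PD-L1, was below the filter at 1, 5 and 4 and 9, 7 and 12 counts. In the complement list 1 of 8 was called, CLU, a secreted chaperone that inhibits the terminal complex, with 249, 234 and 236 CPM and 277, 268 and 272 CPM (0.18 ± 0.037, adjusted p = 0.0275).

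Several large rises were in genes outside the lists described above, which does not place them outside these pathways. KLHDC7B (ENSG00000130487, chr22:50545899-50551023), a kelch-domain gene, went from 1, 1 and 0 counts to 64, 58 and 76 counts, 2 against 198 in sum and a ratio of 90.2 with an exact interval of 24.6 to 750.0 (adjusted p = 6.84e-07). It passed the filter on low counts through its treated libraries alone. COL16A1, a fibril-associated collagen gene, measured 3.97, 4.27 and 4.26 CPM and 13.8, 12.1 and 12.3 CPM (1.61 ± 0.090, adjusted p = 1.33e-07). The long non-coding RNA LINC01315 measured 0.545, 0.381 and 0.461 CPM and 1.69, 1.68 and 1.28 CPM (1.72 ± 0.25, adjusted p = 0.00174). Groups that did not overlap were a condition of naming the largest changes, so this is not a result about these 3 genes.

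APOL3, an apolipoprotein L gene, rose from 0.896, 0.877 and 0.806 CPM to 3.06, 2.7 and 2.48 CPM (1.66 ± 0.18, adjusted p = 0.000114), and its relatives APOL6 and APOL2 by 0.98 and 0.21 (adjusted p = 0.000141 and 0.0968). ETV7, an ETS factor, measured 0.74, 0.458 and 0.422 CPM and 1.37, 1.29 and 1.79 CPM (1.48 ± 0.26, adjusted p = 0.00833). The laminin chain gene LAMB3, part of laminin-332 in the basement membrane, went from 1.17, 0.839 and 0.883 CPM to 1.89, 2.23 and 2.28 CPM (1.15 ± 0.19, adjusted p = 0.00523). TRIM47, a ubiquitin ligase gene, rose by 1.15 (adjusted p = 2.55e-05), although 51.6% of its exonic bases are covered by opposite-strand exons. FN1, the fibronectin gene, measured 2.57, 2.94 and 2.61 CPM and 3.86, 5.25 and 4.84 CPM (0.79 ± 0.14, adjusted p = 0.00797), a call lost with all 12 libraries in one fit (adjusted p = 0.148). TDO2, which opens the tryptophan ring on the kynurenine route, rose from 9.35, 8.69 and 9.75 CPM to 18.2, 18.1 and 17.1 CPM (0.94 ± 0.069, adjusted p = 3.05e-06) and was the 1 gene called of 13 tested for NAD synthesis and use, in which NAMPT gave -0.063 (adjusted p = 0.692).

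Some higher genes were chosen for mention after their values were seen. CTSE, the aspartic protease cathepsin E, had 0, 0 and 0 counts untreated and 26, 28 and 24 counts with TWEAK, at least 8.16-fold higher with 3 counts per untreated library as the floor (adjusted p = 0.000216). CYP4F12, a fatty acid hydroxylase gene, had 0, 0 and 2 and 30, 42 and 37 counts, a ratio of 49.7 with an interval of 13.4 to 415.0 (adjusted p = 8.77e-05). Both were below 3 counts in each untreated library and passed the filter on low counts through their treated libraries. MOB3B rose by 2.9, KLHL5 by 2.56 and the keratin gene KRT2 by 2.24 (adjusted p = 8.77e-05, 0.0014 and 0.00453), each from under 1 CPM. TYMP, thymidine phosphorylase, measured 31.8, 28.3 and 29.4 CPM and 68.2, 59.2 and 61.3 CPM (1.07 ± 0.060, adjusted p = 1.33e-07), and ANKRD22 8.33, 8.08 and 8.29 CPM and 17.2, 17.2 and 17.9 CPM (1.08 ± 0.066, adjusted p = 3.46e-07). Among long non-coding RNAs, GAS5 gave 0.21, SNHG1 0.18, SNHG12 0.31, SNHG15 0.24 and ZFAS1 0.21 (with 36.4% of its exonic bases under opposite-strand exons), at adjusted p between 0.0286 and 0.0692.

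In the comparison of all 6 libraries 31 genes were lower, whereas without TWEAK replicate 2 lower genes outnumbered higher ones. TTC21B (ENSG00000123607, chr2:165857475-165953851), a component of intraflagellar transport in the primary cilium, measured 16.8, 18.2 and 18.3 CPM untreated and 12.7, 11.4 and 11.7 CPM with TWEAK (-0.58 ± 0.068, adjusted p = 0.000209). It was the 1 gene called of 25 tested cilium genes, whose median was -0.031, but without TWEAK replicate 2, and by limma voom, 1 was higher and 2 were lower. SNPH, a syntaphilin that anchors mitochondria to microtubules, fell from 90.6, 88.2 and 87.3 CPM to 57.6, 62.4 and 62.2 CPM (-0.55 ± 0.043, adjusted p = 6.01e-06). Together with BCL3 these were the most strongly reduced called genes among those with a mean of at least 1 CPM and non-overlapping groups. Non-overlap was a condition of that choice and is not a result about these genes. CA2, carbonic anhydrase 2, measured 6.78, 6.48 and 7.1 CPM and 3.82, 4.5 and 5.66 CPM (-0.51 ± 0.13, adjusted p = 0.0837). The mucin gene MUC2, named after its value was seen, had 45, 20 and 39 counts untreated and 9, 17 and 12 counts treated (-1.57 ± 0.35, adjusted p = 0.0457).

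FASN and SCD were lower and abundant. FASN, fatty acid synthase, measured 2483, 2610.0 and 2488 CPM and 1862, 2342 and 2093 CPM (-0.27 ± 0.062, adjusted p = 0.0589), and without TWEAK replicate 2 its log2 fold change was -0.35 (adjusted p = 2.75e-07). The fit without TWEAK replicate 2 had no offset for length, and its lower genes had a median of 9574 exonic bases against 4772 over all tested genes. The call of FASN was lost without untreated replicate 1, 2 or 3 (adjusted p = 0.155, 0.392 and 0.245), without TWEAK replicate 3 (0.255) and with all 12 libraries in one fit (0.160). SCD, which desaturates stearoyl-CoA, measured 2696, 2814 and 2848 CPM and 2221, 2430.0 and 2343 CPM (-0.26 ± 0.040, adjusted p = 0.00292). INSIG1, an SREBP regulator, fell by less, from 288, 293 and 298 CPM to 266, 264 and 265 CPM (-0.14 ± 0.034, adjusted p = 0.0686). It was the 1 gene called of 23 tested in cholesterol synthesis, where the median was -0.056 and 7 were lower without TWEAK replicate 2.

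Further lower genes had varied roles. THBS1, the matrix glycoprotein thrombospondin 1, measured 1570.0, 1678 and 1644 CPM and 1261, 1485 and 1395 CPM (-0.24 ± 0.051, adjusted p = 0.0365). DDIT4, an inhibitor of mTORC1 also known as REDD1, measured 197, 209 and 205 CPM and 173, 165 and 175 CPM (-0.25 ± 0.039, adjusted p = 0.0030). FURIN, a proprotein convertase, had a log2 fold change of -0.24 ± 0.050, adjusted p = 0.0286. CDCA7L, a MYC-interacting protein gene and the 1 gene called of 14 tested in the MYC network (2 were lower without TWEAK replicate 2), measured 37.1, 35.8 and 36.8 CPM and 30.4, 26.9 and 28.8 CPM (-0.35 ± 0.053, adjusted p = 0.00265), with 21.4% of its exonic bases under opposite-strand exons. The steroid sulphatase gene STS measured 143, 157 and 156 CPM and 118, 135 and 125 CPM (-0.27 ± 0.052, adjusted p = 0.0173), and the sialic acid synthesis gene GNE 34.5, 38 and 37.4 CPM and 28.9, 30.5 and 30.0 CPM (-0.30 ± 0.052, adjusted p = 0.00785). The others named by the rule, PLA2G4F, PLPP4, EXTL2, C1orf21, OLMALINC, MYO9A, RAP1GAP and GRM4, had log2 fold changes between -0.36 and -0.21 and adjusted p between 0.00441 and 0.0711.

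In AP-1, 2 of 15 tested genes rose, and 1 without any one untreated library or TWEAK replicate 3, where FOS was not called (adjusted p = 0.106 to 0.299). FOS measured 0.973, 0.915 and 1.27 CPM untreated and 2.74, 1.49 and 2.45 CPM with TWEAK (1.09 ± 0.24, adjusted p = 0.0424), and its lowest treated library, TWEAK replicate 2, was just above the highest untreated one. JUNB measured 69.4, 68.8 and 65.8 CPM and 98.3, 89.2 and 90.2 CPM (0.44 ± 0.046, adjusted p = 8.47e-05), with 14.2% of its exonic bases under opposite-strand exons. JUN, FOSB and ATF3 gave 0.11, -0.022 and 0.20 (adjusted p = 0.505, 0.98 and 0.587), and the median of the list was 0.0015. Neither edgeR nor DESeq2 called any of 24 tested MAPK feedback and immediate-early genes, of which 6 had an unadjusted p under 0.05. For this list limma voom called 2 higher and 2 lower, edgeR with the offset for GC content and length called 1 lower, and without TWEAK replicate 2 edgeR called 1 higher and 3 lower. EGR1 measured 4.95, 5.99 and 5.99 CPM and 6.76, 6.27 and 6.54 CPM (0.21 ± 0.10, adjusted p = 0.488), and DUSP6 82.5, 90.7 and 90.6 CPM and 92.8, 91.8 and 91 CPM (0.063 ± 0.044, adjusted p = 0.638).

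The ERBB genes that define the subtype were not called by edgeR or DESeq2 among 12 tested (1 with an unadjusted p under 0.05, 3 lower by limma voom, 2 lower without TWEAK replicate 2, median 0.018). ERBB2 measured 945, 938 and 912 CPM and 886, 909 and 883 CPM (-0.062 ± 0.034, adjusted p = 0.55), and ERBB3 318, 331 and 324 CPM and 297, 323 and 300.0 CPM (-0.082 ± 0.040, adjusted p = 0.495). In the list of luminal apocrine genes 2 of 23 rose, but none was called without untreated replicate 2, without untreated replicate 3 or with all 12 libraries in one fit. These were AGR2, an endoplasmic reticulum disulphide isomerase (0.20 ± 0.043, adjusted p = 0.0424), and the keratin KRT7 (0.25 ± 0.046, adjusted p = 0.0101). GATA3, FOXA1 and KRT8 gave -0.033, -0.039 and 0.10, with adjusted p of 0.751, 0.722 and 0.351.

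Cell cycle genes gave no call by edgeR or DESeq2 among 37 tested, 2 had an unadjusted p under 0.05, limma voom called 1 higher and 2 lower, 1 was lower with the offset for GC content and length, 2 were lower without TWEAK replicate 2, and the median was -0.0013. MKI67, the proliferation antigen Ki-67, measured 766, 809 and 794 CPM and 568, 777 and 668 CPM (-0.23 ± 0.078, adjusted p = 0.284), and because TWEAK replicate 2 lay inside the untreated range the groups overlapped. Without that library its log2 fold change was -0.35 (adjusted p = 3.3e-06). That fit had no offset for length, and its lower genes were long, with a median of 9574 exonic bases against 4772 over all tested genes. Whether length contributed to the value of MKI67 was not tested. Apoptosis genes likewise gave no call by edgeR or DESeq2 among 28 tested (4 with an unadjusted p under 0.05, 3 higher and 1 lower by limma voom, 5 higher without TWEAK replicate 2, median 0.0092), with CASP8 at -0.019, MCL1 at 0.0025 and BAX at 0.086 (adjusted p = 0.923, 0.987 and 0.654). The 13 genes encoded in mitochondria gave no call by edgeR or DESeq2, 3 with an unadjusted p under 0.05 and 1 higher and 6 lower by limma voom, with a median of -0.056. Without TWEAK replicate 2, 1 of them was higher and 7 lower, with a median of -0.11.

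Isolated calls marked the remaining lists. LAMB3 was the 1 gene called of 23 in epithelial adhesion, in which CDH1, E-cadherin, measured 48.4, 51.4 and 49.6 CPM and 46.6, 52.4 and 50.4 CPM (0.00044 ± 0.050, adjusted p = 1.0). FN1 was the 1 called of 6 tested basal and mesenchymal genes, most of which were hardly counted. VIM, vimentin, had 6, 3 and 2 and 4, 3 and 11 counts. Of 16 tested matrix proteases and inhibitors the lysosomal protease CTSD rose (0.17 ± 0.041, adjusted p = 0.0837). SQSTM1, the autophagy receptor p62, and HMOX1, haem oxygenase 1, were the 2 called of 23 NRF2 targets (0.22 ± 0.036, adjusted p = 0.00377 and 0.27 ± 0.065, adjusted p = 0.0801), and NQO1 gave 0.088 (adjusted p = 0.392). The calls of CTSD and HMOX1 were lost with the offset for GC content and length. BAMBI, a decoy receptor for TGF-β ligands, was the 1 called of 22 tested in TGF-β signalling (0.24 ± 0.049, adjusted p = 0.0263). Without TWEAK replicate 2 the calls numbered 4 higher and 4 lower in epithelial adhesion, 6 higher and 4 lower among luminal apocrine genes, 9 higher among NRF2 targets, 2 higher among matrix proteases and inhibitors, 1 higher and 3 lower in TGF-β signalling, 4 higher among TRAF and cIAP genes, 6 higher among IRF and STAT factors and 11 higher in class I peptide supply. In that fit 6.59% of all tested genes were higher and 7.22% lower, against 1.29% and 0.208% with all 6 libraries. More calls in a list there are therefore not read as particular to the list. Leaving out other libraries lowered several counts: the single calls in the TGF-β, complement, interleukin, protease and cholesterol lists were lost when replicate 2 or 3 of the untreated group or replicate 3 of the TWEAK group was dropped, and in each case NRF2 targets numbered 1.

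The response was set against that of SKBR3 by a test of the line by treatment interaction over all 12 libraries, in which positive values denote a larger log2 fold change in MDA-MB-453. Of 17201 genes tested, 173 (1.01%) had a larger and 406 (2.36%) a smaller log2 fold change in MDA-MB-453 than in SKBR3. Without TWEAK replicate 2 of SKBR3 these counts were 505 and 645. Of the 192 higher genes 171 were tested in SKBR3 alone, where 120 were also higher and 3 lower, and 43 of the 192 had a smaller and 22 a larger change in MDA-MB-453. Of the 31 lower genes 29 were tested in SKBR3, where 10 were also lower and 4 higher. The share of all genes called in SKBR3 is not given here, so neither set of counts is read as agreement between the lines. Of the non-canonical genes RELB changed more here: it gave an interaction of 1.3 ± 0.21, adjusted p = 0.00158, with a log2 fold change of 2.75 here and 1.44 in SKBR3. IL6ST gave 1.31 ± 0.25, adjusted p = 0.00526 (2.5 against 1.18), TNFAIP3 1.15 ± 0.26, adjusted p = 0.0207 (2.44 against 1.28) and TNFSF15 1.87 ± 0.46, adjusted p = 0.0399 (3.74 against 1.86). The interactions of TNFAIP3 and TNFSF15 lost their call under at least 1 alternative, with adjusted p up to 0.135 and 0.165. For NFKB2, MAP3K14 and BIRC3 no difference between the lines was called, with interactions of -0.12 ± 0.087, adjusted p = 0.701 for NFKB2, 0.38 ± 0.12, adjusted p = 0.11 for MAP3K14 and 0.15 ± 0.21, adjusted p = 0.905 for BIRC3.

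Some interferon-stimulated genes changed more in MDA-MB-453 and others less, and no share of the list is given. USP18 gave 0.45 ± 0.088, adjusted p = 0.00751, LGALS3BP 0.59 ± 0.12, adjusted p = 0.0128, PLSCR1 0.54 ± 0.15, adjusted p = 0.0692 and EIF2AK2 0.39 ± 0.10, adjusted p = 0.0465, of which those of PLSCR1 and EIF2AK2 reached an adjusted p of 0.240 and 0.150 under an alternative. Other members of the same list changed less here: PARP14 gave -1.29 ± 0.19, adjusted p = 0.000609 (0.44 here and 1.72 in SKBR3) and DTX3L -1.39 ± 0.13, adjusted p = 4.45e-06 (0.38 and 1.76). HELZ2 and APOL6 gave -0.78 and -0.60 (adjusted p = 0.0798 and 0.0863), which reached 0.226 and 0.218 under an alternative. IFIT1, IFI44, IFI27 and IFI44L were too low in SKBR3 to be tested there.

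PSMB9, TAP1, TAPBP, ERAP1, PSMB8 and HLA-C of antigen presentation changed less in MDA-MB-453, as did 2.36% of all genes tested. No share of their lists is given. PSMB9 had a log2 fold change of 1.31 here and 3.7 in SKBR3, an interaction of -2.39 ± 0.28, adjusted p = 6.05e-05. TAP1 gave -1.19 ± 0.078, adjusted p = 8.89e-08, TAPBP -1.25 ± 0.12, adjusted p = 1.01e-05, ERAP1 -0.91 ± 0.11, adjusted p = 9.29e-05, PSMB8 -0.83 ± 0.16, adjusted p = 0.00713 and HLA-C -1.0 ± 0.22, adjusted p = 0.0207, which reached 0.13 under an alternative. HLA-B and B2M gave interactions of 0.072 ± 0.25, adjusted p = 0.986 and -0.021 ± 0.090, adjusted p = 0.992 respectively, neither of them called.

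ICAM1, FAS and 2 of 13 TRAF and cIAP genes changed less here. ICAM1 changed by 0.55 here and 2.48 in SKBR3 (-1.94 ± 0.13, adjusted p = 1.3e-07), TRAF1 by 0.42 and 3.3 (-2.89 ± 0.36, adjusted p = 0.000146), TRAF2 by 0.10 and 0.84 (-0.75 ± 0.086, adjusted p = 6.05e-05) and FAS by 1.18 and 3.81 (-2.64 ± 0.54, adjusted p = 0.010). NFKB1 and STAT3, uncalled in MDA-MB-453, were higher in SKBR3 and gave -0.36 ± 0.076, adjusted p = 0.0147 and -0.47 ± 0.063, adjusted p = 0.000259. CDCA7L fell by less here, with -0.35 against -2.01 (1.66 ± 0.11, adjusted p = 1.3e-07). The receptor gene TNFRSF12A gave no call, with -0.20 ± 0.10, adjusted p = 0.532.

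A few genes went opposite ways in the 2 lines. DDIT4 was lower here and higher in SKBR3 (-0.25 and 0.39, interaction -0.65 ± 0.082, adjusted p = 0.000156). Chosen after their values were seen, CYP1A1, a cytochrome P450 gene of the aryl hydrocarbon receptor, rose from 2.3, 4.04 and 2.92 CPM to 5.59, 5.76 and 5.18 CPM (0.83 ± 0.16, adjusted p = 0.0147) and fell in SKBR3 (-1.99), an interaction of 2.81 ± 0.28, adjusted p = 1.01e-05. SECTM1 showed the same pattern (0.19 and -1.08, interaction 1.27 ± 0.10, adjusted p = 4.84e-07). DPYSL2 and LDLRAD3 showed the reverse, with -0.20 and 1.1 for DPYSL2 (interaction -1.3 ± 0.15, adjusted p = 6.32e-05) and -0.17 and 0.72 for LDLRAD3 (interaction -0.90 ± 0.088, adjusted p = 1.01e-05).

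**Figure D4:**
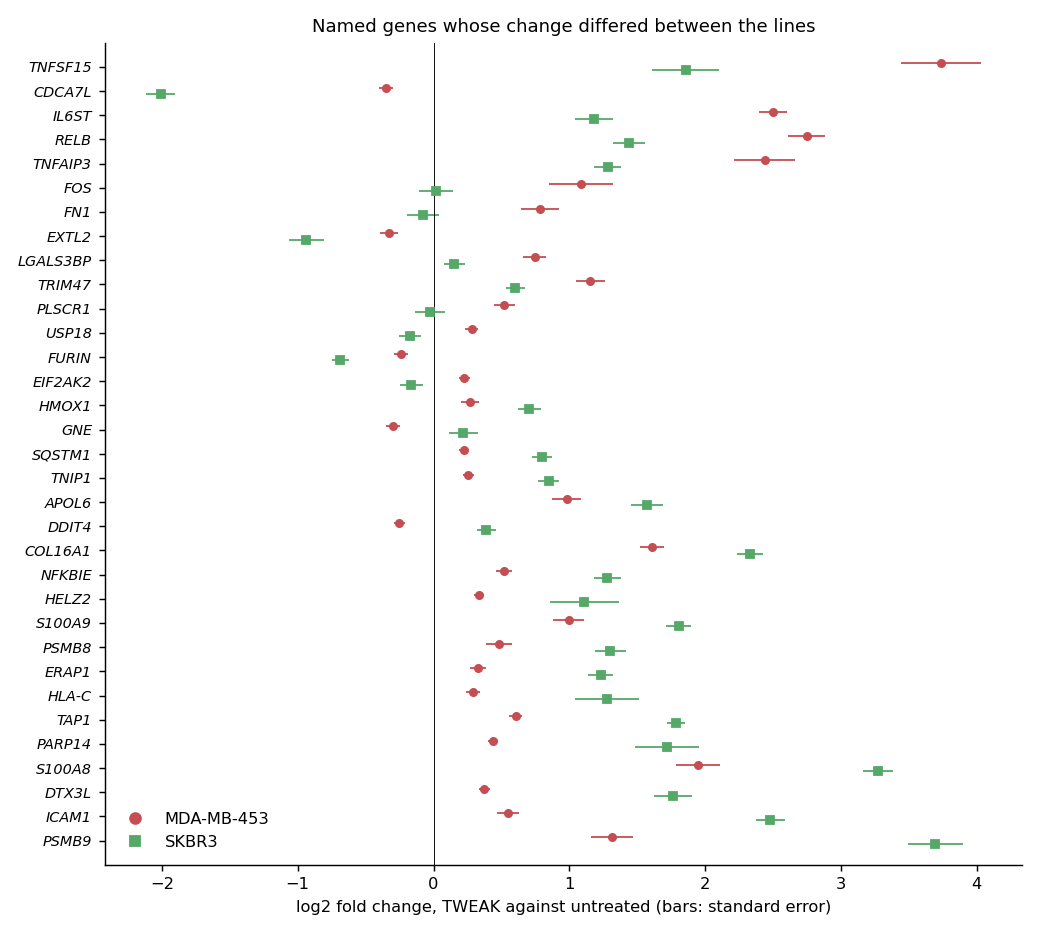
Log2 fold change with TWEAK in MDA-MB-453 (red circles) and SKBR3 (green squares), with bars for the standard error, for 33 named genes whose change differed between the lines at an adjusted interaction p of at most 0.1. Within this set, genes run from those with a larger change in MDA-MB-453 (TNFSF15, at an interaction of 1.87) to those with a smaller one (PSMB9, at -2.39). Genes without a call in MDA-MB-453, such as TRAF1 and FAS, and genes chosen after their values were seen, such as CYP1A1, are not shown.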

How the data were processed

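Poly(A) RNA-seq of the 6 MDA-MB-453 libraries was analysed from the deposited counts per gene, which the authors made by trimming (Trimmomatic), mapping to hg38 (STAR) and featureCounts; tool versions, annotation release and strand setting are not given in the sources used here. The labels name a DNA library kit and the study's methods a directional RNA kit. Ensembl IDs were matched to GENCODE 44 (62672 of 62696). Genes were filtered with filterByExpr, scaled by TMM within the line and tested with edgeR 4.0.16 in R 4.3.3 (quasi-likelihood, 2-sided, Benjamini-Hochberg, adjusted p at most 0.1, the threshold of the study). Fold changes carry a prior count of 0.125, and CPM are TMM-scaled. Each standard error is the size of the log2 fold change divided by the square root of the quasi-likelihood F statistic. At 24773003 to 35208304 counts per library the biological coefficient of variation was 3.95%.

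The interaction used all 12 libraries. Genes named are the 20 largest and 20 smallest changes among called genes with a mean of at least 1 CPM and non-overlapping groups, called members of 36 gene lists, pathway-defining members without a call, cell type markers, and those said to be chosen after their values were seen. The members and lists were chosen with earlier results of these data known. The labels do not tie replicate numbers to a shared day, so no pairing was used. Deviations of same-numbered samples correlated at r = 0.025 to 0.0862, the best match of each sample, so pairing is not excluded. Alternatives were other scaling, DESeq2 1.42.0, limma 3.58.1 voom with sample quality weights, other filters and threshold, a replicate block, GC content and length offsets, all 12 libraries in one fit, and each library left out. A check of the test on simulated counts is not reported here, and no result rests on it. Some members of the lists, counted in the totals, are not reported here by name.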

Additional observations from a re-analysis of the deposited data

Results flagged for a closer look

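The genes below were picked out of the 116 called genes named by the rule. Their response to TWEAK differed between MDA-MB-453 and SKBR3 by the interaction test at an adjusted p of at most 0.1. Genes without a call in MDA-MB-453, such as TRAF1 and FAS, and genes chosen after their values were seen, such as CYP1A1, were left out. Values subtract the SKBR3 log2 fold change from that of MDA-MB-453, and their causes were not tested.

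The change was larger, or less negative, in MDA-MB-453 for the NF-κB genes TNFAIP3 (1.15) and RELB (1.3), the cytokine TNFSF15 (1.87) and receptor IL6ST (1.31), and the AP-1 gene FOS (1.06) and fibronectin FN1 (0.86). It was also larger for the interferon-related genes USP18 (0.45), EIF2AK2 (0.39), PLSCR1 (0.54) and LGALS3BP (0.59), and for TRIM47 (0.55). CDCA7L (1.66), EXTL2 (0.60) and FURIN (0.44) fell by less than in SKBR3.

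The change was smaller in MDA-MB-453 for the antigen presentation genes PSMB9 (-2.39), TAP1 (-1.19), HLA-C (-1.0), ERAP1 (-0.91) and PSMB8 (-0.83), the adhesion ligand ICAM1 (-1.94), calprotectin genes S100A8 (-1.33) and S100A9 (-0.82), and the interferon-related genes DTX3L (-1.39), PARP14 (-1.29), HELZ2 (-0.78) and APOL6 (-0.60). The same held for the NF-κB inhibitors NFKBIE (-0.77) and TNIP1 (-0.60), for COL16A1 (-0.72), SQSTM1 (-0.58) and HMOX1 (-0.44), and for DDIT4 (-0.65) and GNE (-0.52), which fell here and had positive values in SKBR3. Over the alternatives the adjusted p of the interaction exceeded 0.1 at its highest for HELZ2 (0.226), APOL6 (0.218), PLSCR1 (0.240), FN1 (0.193), FOS (0.186), TNFSF15 (0.165), EIF2AK2 (0.150), TNFAIP3 (0.135), EXTL2 (0.129), HLA-C (0.13) and TRIM47 (0.123).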

How the results depend on the processing

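The counts moved most when TWEAK replicate 2 was left out or libraries were weighted by quality. Leaving out each library in turn gave 120 to 1003 higher genes and 10 to 1098 lower genes, the highest without TWEAK replicate 2, the fewest higher genes without untreated replicate 3 and the fewest lower genes without untreated replicate 2. limma voom, which weights libraries, gave 1037 and 963. No filter on low counts gave 302 and 178. The lower genes were 103 with the GC content and length offset, 13 with all 12 libraries in one fit and 17 at an adjusted p of at most 0.05. The GC content and length offset without TWEAK replicate 2, chosen after seeing the data, gave 862 and 871. DESeq2 gave 171 and 33, its size factors in edgeR 185 and 31. Of 116 named genes, 72 kept their call under every alternative run for them (112 could be run with at least 10 counts in every library), 44 lost it under at least one and none reversed, and leaving out TWEAK replicate 2 lost none. Leaving out another single library lost 10 to 38 of them, the most (38) when untreated replicate 2 was dropped, namely FOS, CA2, PLA2G4F, EXTL2, C1orf21, STS, FASN, OLMALINC, MYO9A, FURIN, THBS1, GRM4, NFKBIB, TNFSF10, HLA-C, PSMB8, PSME1, ISG15, IFI6, IFIT2, IFIT3, IFIT5, DHX58, TRIM21, BST2, SP110, GBP3, APOL2, LAP3, SAMHD1, IL4R, CLU, AGR2, KRT7, CTSD, INSIG1, HMOX1 and BAMBI. The fit of all 12 libraries lost 33, and the other 6 of the 44 lost their call there alone: FN1 (adjusted p = 0.148), TNIP1 (adjusted p = 0.106), PSME2 (adjusted p = 0.103), SQSTM1 (adjusted p = 0.119), HELZ2 (adjusted p = 0.171) and EIF2AK2 (0.316).

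With a replicate block 490 genes were higher and 404 lower, and with the block and the GC content and length offset 552 and 533. Every one of the 6 samples correlated best with its own number (r = 0.025 to 0.0862), a hint from the data and not the design. The labels do not say that a number marks a shared day, so the samples were not treated as paired. The size of these correlations does not exclude pairing. For the interaction, 101 genes had a larger change with the replicate block and 95 at an adjusted p of at most 0.05, and leaving out libraries gave 90 to 505 larger and 304 to 645 smaller changes, the highest of both without SKBR3 TWEAK replicate 2. The larger changes numbered 90 without TWEAK replicate 3 of MDA-MB-453, 95 to 105 when one of its untreated libraries was dropped. The causes were not tested.

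At these depths 3 counts are 0.0854 to 0.121 CPM, so genes such as IFNB1, LTB and CD274 could not be tested, and a missing call there says nothing of a change. The library that stands apart, an unknown strand setting and shared sequence among HLA genes also limit single values.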
